A study of Mus musculus with 6 samples.

Results

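The cytosolic ribosomal protein genes encode the proteins that, with ribosomal RNA, build the small (40S) and large (60S) ribosomal subunits. They were chosen by name, as protein-coding mouse genes whose symbols follow the Rps, Rpl, Rplp and Rpsa pattern, with the kinases of the Rps6k type and the pseudogenes left out. In the annotation used, 90 symbols had that pattern, of which 84 were protein-coding and 6 were pseudogenes. The count table held 83 of the 84, among 25751 genes. The set comprised 32 proteins of the 40S subunit, counting Rpsa, and 51 of the 60S subunit. The remaining one, Rpl10l, was not analysed here. The naming rule used no measured value, although the family was picked with earlier results of these data known.

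The samples were primary wild-type mouse cells labelled as myeloid, at 24 h. In 3 libraries the cells had been treated with TMAO, and 3 libraries were controls without it. TMAO (trimethylamine N-oxide) is an oxidised amine that the liver forms from trimethylamine, a product of the gut microbiota. Polyadenylated RNA was sequenced and summarised as counts per gene, with library totals of 37759007 to 38935691 counts with TMAO and 38233772 to 41735109 in the controls. The dose, the source animals and the way the myeloid cells were obtained are not in the labels. The sample descriptions call the treated libraries T-BMDM and the others Control, so a difference in cell source cannot be told apart from the treatment. Nothing in the labels says whether the replicates were separate cultures or animals. The p-values therefore rest on a spread between libraries that may be technical only.

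Ribosomal proteins are needed in near equal numbers, since each ribosome takes one copy of most of them and the acidic stalk proteins form pairs. Their mRNAs are among the abundant short mRNAs of a growing cell, and most begin with a terminal oligopyrimidine (TOP) tract, a C followed by a run of pyrimidines, through which mTOR complex 1 and LARP1 control their translation. In mouse and human, most of the genes are single functional copies with many processed pseudogenes, and a few have an expressed paralog. Ribosomal protein genes are commonly co-regulated, so the questions here were how uniform their difference between TMAO and control cells was, and which genes departed from it.

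The TOP tract is visible at the annotated starts of several of the genes described here. The stretches shown run from 40 bases before the annotated start to 20 bases from it onward, on the gene's own strand, from RefSeq on build GRCm38.p6. They were chosen, with the values known, to show members near the family median, members above it and members below it. Capitals mark each pyrimidine run of at least 5 bases that begins with C, except in Rps28, where they mark a palindrome of 10 bases.
Rpl13a (chr7:45128726-45128785, minus strand): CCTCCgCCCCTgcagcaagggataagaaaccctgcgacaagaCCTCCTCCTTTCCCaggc
Rplp2 (chr7:141447611-141447670, plus strand): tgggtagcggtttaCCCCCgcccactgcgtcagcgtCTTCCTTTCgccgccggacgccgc
Rps28 (chr17:33824543-33824602, minus strand): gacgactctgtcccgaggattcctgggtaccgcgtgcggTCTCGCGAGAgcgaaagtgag
Rps6 (chr4:86857348-86857407, minus strand): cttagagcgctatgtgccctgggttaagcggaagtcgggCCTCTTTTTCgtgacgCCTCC
Rps18 (chr17:33955646-33955705, minus strand): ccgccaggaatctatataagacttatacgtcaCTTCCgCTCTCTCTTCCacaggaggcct
Rps9 (chr7:3704001-3704060, plus strand): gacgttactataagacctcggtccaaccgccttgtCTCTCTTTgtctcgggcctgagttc
Rpl31 (chr1:39367811-39367870, plus strand): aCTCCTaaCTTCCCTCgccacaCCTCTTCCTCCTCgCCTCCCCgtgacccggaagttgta
Rps4x (chrX:102189372-102189431, minus strand): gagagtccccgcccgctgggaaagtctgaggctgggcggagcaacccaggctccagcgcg
In Rps6, Rps18, Rps9 and Rplp2 the longest run begins at or a few bases before the annotated start, and in Rpl13a it begins just after the start. In Rpl31 the longest run ends before the start and a shorter one spans it. The Rps4x and Rps28 stretches hold no such run. The authors' counts were made on another build, so these positions serve only to place the sequences.

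All 83 ribosomal protein genes were higher with TMAO, and 0 were lower. Each passed the count filter and was called by edgeR's quasi-likelihood test at an adjusted p of at most 0.0296 (Benjamini-Hochberg, 14626 genes tested). That test called 33.0% of all genes higher, 32.7% lower and 65.7% in either direction, so a call by itself was common in this comparison. Over the members the log2 fold changes had a median of 1.09, a 2.12-fold difference, against 0.01 over all genes tested. In 82 of the 83 members the 3 TMAO values lay above the 3 control values, which held for 34.7% of all genes tested. The exception was Rpl22l1. In bulk RNA, a different mix of cell types and a different amount of RNA per cell cannot be told apart.

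As a share of all counts, the family held 4.68%, 6.45% and 5.53% in the TMAO libraries, against 2.57%, 3.02% and 2.52% in the control libraries. The means were 5.55% ± 0.887 with TMAO and 2.70% ± 0.279 in controls (SD, n = 3 each), a ratio of 2.05. The groups did not overlap. The exact two-sided permutation test gave p = 0.1, the smallest that 3 against 3 libraries allow. Within the TMAO group the share was highest in TMAO 2 and lowest in TMAO 1, and this order ran through the family, with TMAO 2 the highest of the TMAO libraries in 78 members and TMAO 1 the lowest in 79. Control 2 was the highest control library in 76 members.

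**Figure D1:**
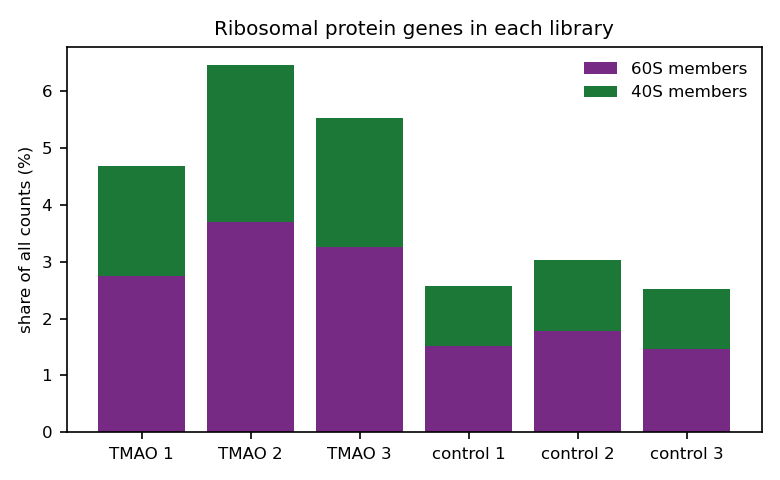
Share of all counts (%, vertical axis from 0) held by the 83 cytosolic ribosomal protein genes in each library, with 60S members below and 40S members above in each stacked bar. The 3 TMAO bars reach 4.68% to 6.45% and the 3 control bars 2.52% to 3.02%.

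Both subunits shared in the difference. The 32 members of the 40S subunit had a median log2 fold change of 1.09, and the 51 of the 60S subunit also 1.09. Counts of 40S members divided by counts of 60S members gave 0.699, 0.744 and 0.699 in the TMAO libraries and 0.688, 0.699 and 0.707 in the control libraries. The ratio averaged 0.714 ± 0.0264 with TMAO and 0.698 ± 0.00953 in controls, a difference within the spread between libraries (exact permutation p = 0.6). The relative profile within the family was less alike between groups than within them. Log2 values of 78 members with a mean of at least 5 CPM correlated at r = 0.985 to 0.996 between libraries of a group. Between libraries of different groups the values were 0.957 to 0.971, all below those within a group. CPM are counts relative to the TMM-adjusted library total, and these correlations are descriptions across genes.

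The spread of the fold changes was narrow. Their interquartile range ran from log2 fold changes of 0.91 to 1.31, a width of 0.40, against a width of 1.32 over all genes tested. The SD was 0.40 over members and 1.32 over all genes. A spread of this size was not particular to the family. The 77 mitochondrial ribosomal protein genes had a width of 0.47 and an SD of 0.38. In fold terms, 72 members lay between 1.5-fold and 3-fold higher, a band that held 2820 of all genes tested, or 19.3%. The 2 members under 1.5-fold were Rpl3 and Rps4x, and 9 exceeded 3-fold. The lowest value was 0.40, of Rpl3, and the highest was 3.02, of Rpl36al.

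**Figure D2:**
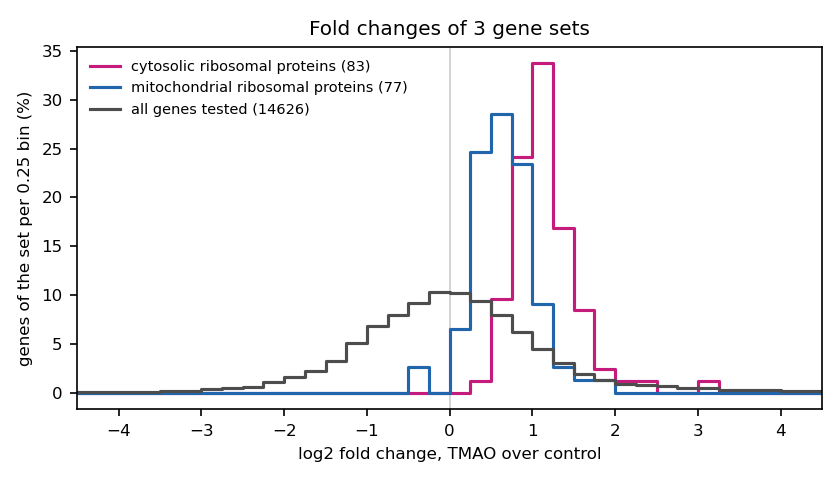
Share of each gene set (%, vertical axis) per 0.25 bin of log2 fold change, TMAO over control (horizontal axis), for the 83 cytosolic ribosomal protein genes, the 77 mitochondrial ribosomal protein genes and all 14626 genes tested. The cytosolic set lies wholly above 0 with a median of 1.09, the mitochondrial set is centred lower with a median of 0.67, and all genes are centred near 0 and spread more widely.

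The acidic stalk of the 60S subunit, which recruits the translational GTPases, showed the family's common difference in its base protein and one of its partners. Rplp0, the stalk base, had 2372, 2595 and 2706 CPM with TMAO and 1265, 1424 and 1075 CPM in controls. Its log2 fold change was 1.05 with a standard error of 0.11 (edgeR adjusted p = 1.91e-05). Rplp1 had 1594, 2009 and 1886 CPM with TMAO, against 777.8, 988.4 and 788.2 CPM in controls, a log2 fold change of 1.13. All 3 stalk genes were higher in every TMAO library than in any control, as were 82 of the 83 members and 34.7% of all genes tested. Of the stalk genes, Rplp2 had the largest difference. It had 424.6, 654.9 and 575.7 CPM with TMAO and 174.5, 233.3 and 181.8 CPM in controls, a log2 fold change of 1.51 ± 0.17 (SE).

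Per kilobase of transcript, the 6 highest members with TMAO were Rplp1, Rpl41, Rps29, Rpl32, Rpl10 and Rplp0. Such levels depend on the transcript taken for each gene, which had 5130 bases for Rps15a and 3706 for Rps20. Rplp1 stood at 3667 CPM per kilobase with TMAO and 1706 in controls, and Rpl41, which encodes a very short basic peptide of the 60S subunit, at 2805 and 938.4. The median level of the 78 members above 5 CPM was 845.7 CPM per kilobase with TMAO and 408.2 in controls. The 5 most abundant members held 17.0% ± 1.19 of the family's counts with TMAO and 17.8% ± 0.288 in controls (exact permutation p = 0.4), a difference within the spread between libraries.

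Rpl5, Rpl11, Rps6 and Rpsa, named for known roles, were all higher, with log2 fold changes of 0.86 to 1.30 beside the family median of 1.09. Rpl5 and Rpl11 bind 5S ribosomal RNA in a particle that also binds and inhibits MDM2 when ribosome assembly fails. Rpl5 had 864.2, 1178 and 1006 CPM with TMAO and 401.6, 486.5 and 429.5 CPM in controls, a log2 fold change of 1.23. Rpl11 had 495.7, 775.5 and 653.4 CPM with TMAO and 323.1, 376.2 and 316.3 CPM in controls, a log2 fold change of 0.95. Both pairs of groups were separate, as in 82 of the 83 members and, with TMAO higher, 34.7% of all genes tested. Rps6, the 40S protein that S6 kinases phosphorylate downstream of mTOR complex 1, had 946.4, 1236 and 1159 CPM with TMAO and 453.8, 519.7 and 401.4 CPM in controls. Its log2 fold change was 1.30 (edgeR adjusted p = 1e-05). Rpsa, a 40S protein also described as a laminin receptor, averaged 1913 ± 356.1 CPM with TMAO and 1073 ± 137.5 CPM in controls, a log2 fold change of 0.86.

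In humans, mutations in a subset of these genes cause Diamond-Blackfan anaemia, a failure of red cell production. Of 19 such genes on the list used, 19 were higher and 0 lower, and their log2 fold changes had a median of 1.03. The list is a subset of the family, so its count follows from that of the family. Rps19, the gene most often mutated in that disease, had 281.4, 484.4 and 362.8 CPM with TMAO and 160.8, 205.1 and 190.4 CPM in controls. Its log2 fold change was 1.04, close to the family median.

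**Figure D3:**
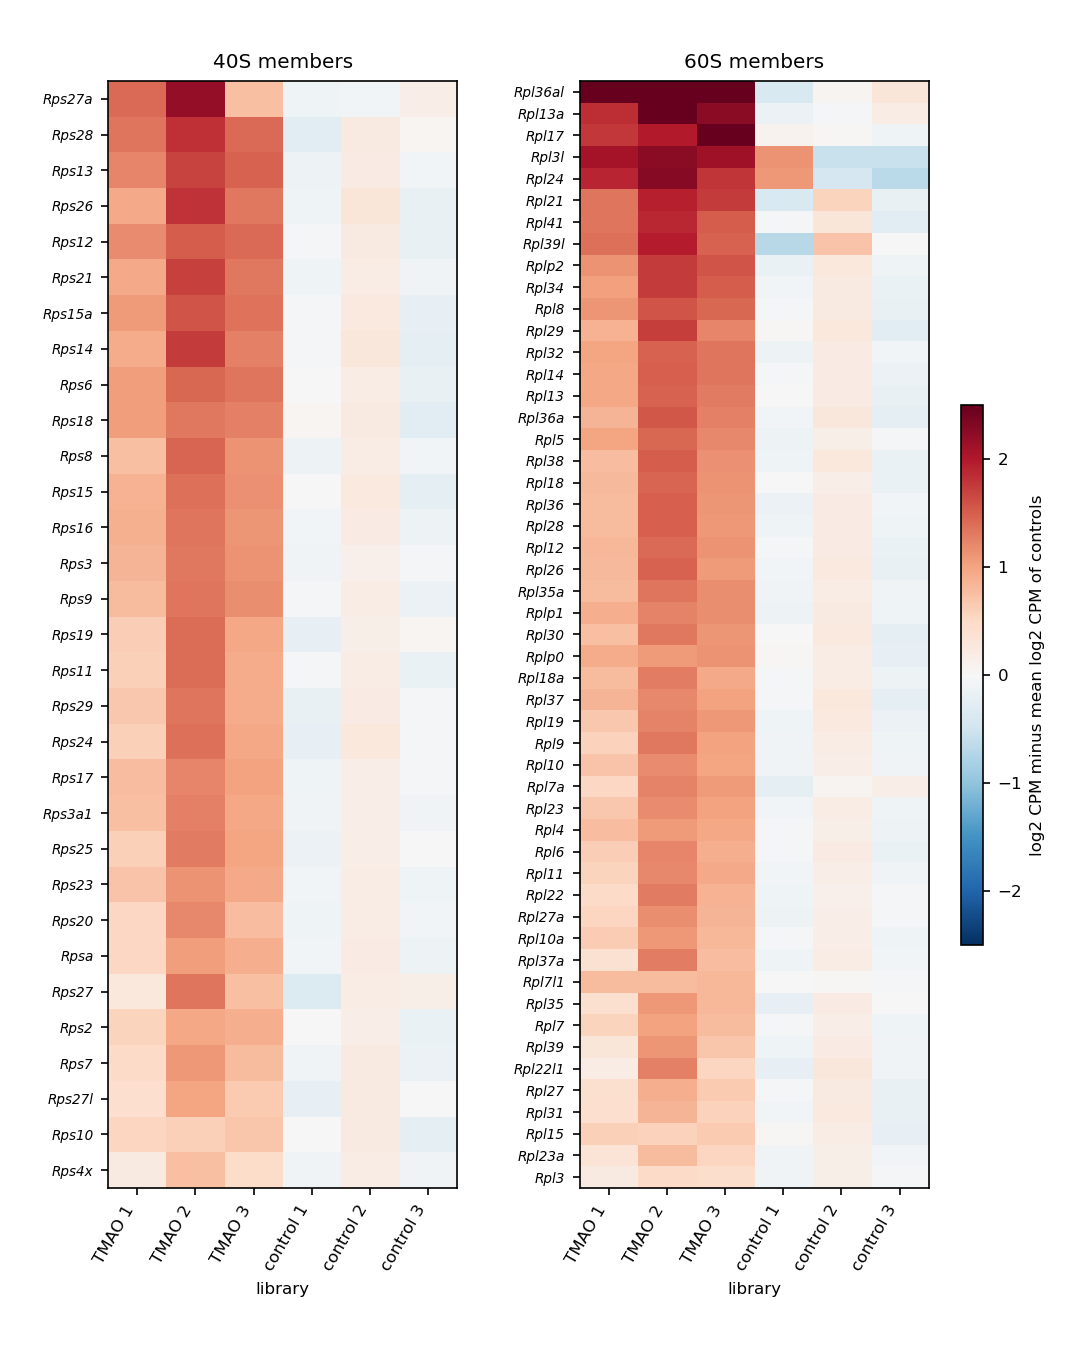
Difference of each member's log2 CPM from its mean log2 CPM over the 3 controls (colour scale), for each library (columns, TMAO on the left) and 31 members of the 40S and 51 of the 60S subunit (rows, sorted by log2 fold change). Values past the ends of the scale take the end colour. The TMAO columns are red in every row shown, and in most rows deepest in TMAO 2.

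Departures from the common difference were tested by scaling the libraries to the members themselves, so that a call means a change relative to the family. In this scaling 9 members lay above the family and 5 below it, and 69 had no call. Over all genes tested, the same scaling called 6.43% above and 66.4% below, 72.8% in either direction. Those above included Rpl36al, Rpl13a, Rpl17, Rpl21, Rpl41, Rps28, Rplp2 and Rps13, and those below were Rpl3, Rps4x, Rpl23a, Rpl31 and Rpl27. The counts moved with single libraries. Without TMAO 3 there were 5 above and 2 below, without control 3 there were 4 and 2, without control 1 there were 7 and 2, and without control 2 there were 6 and 3. Only 5 of these genes, Rpl36al, Rpl13a, Rpl17, Rps4x and Rpl3, were called in all 6 fits that left out 1 library, and the others in 1 to 5 of them.

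**Figure D4:**
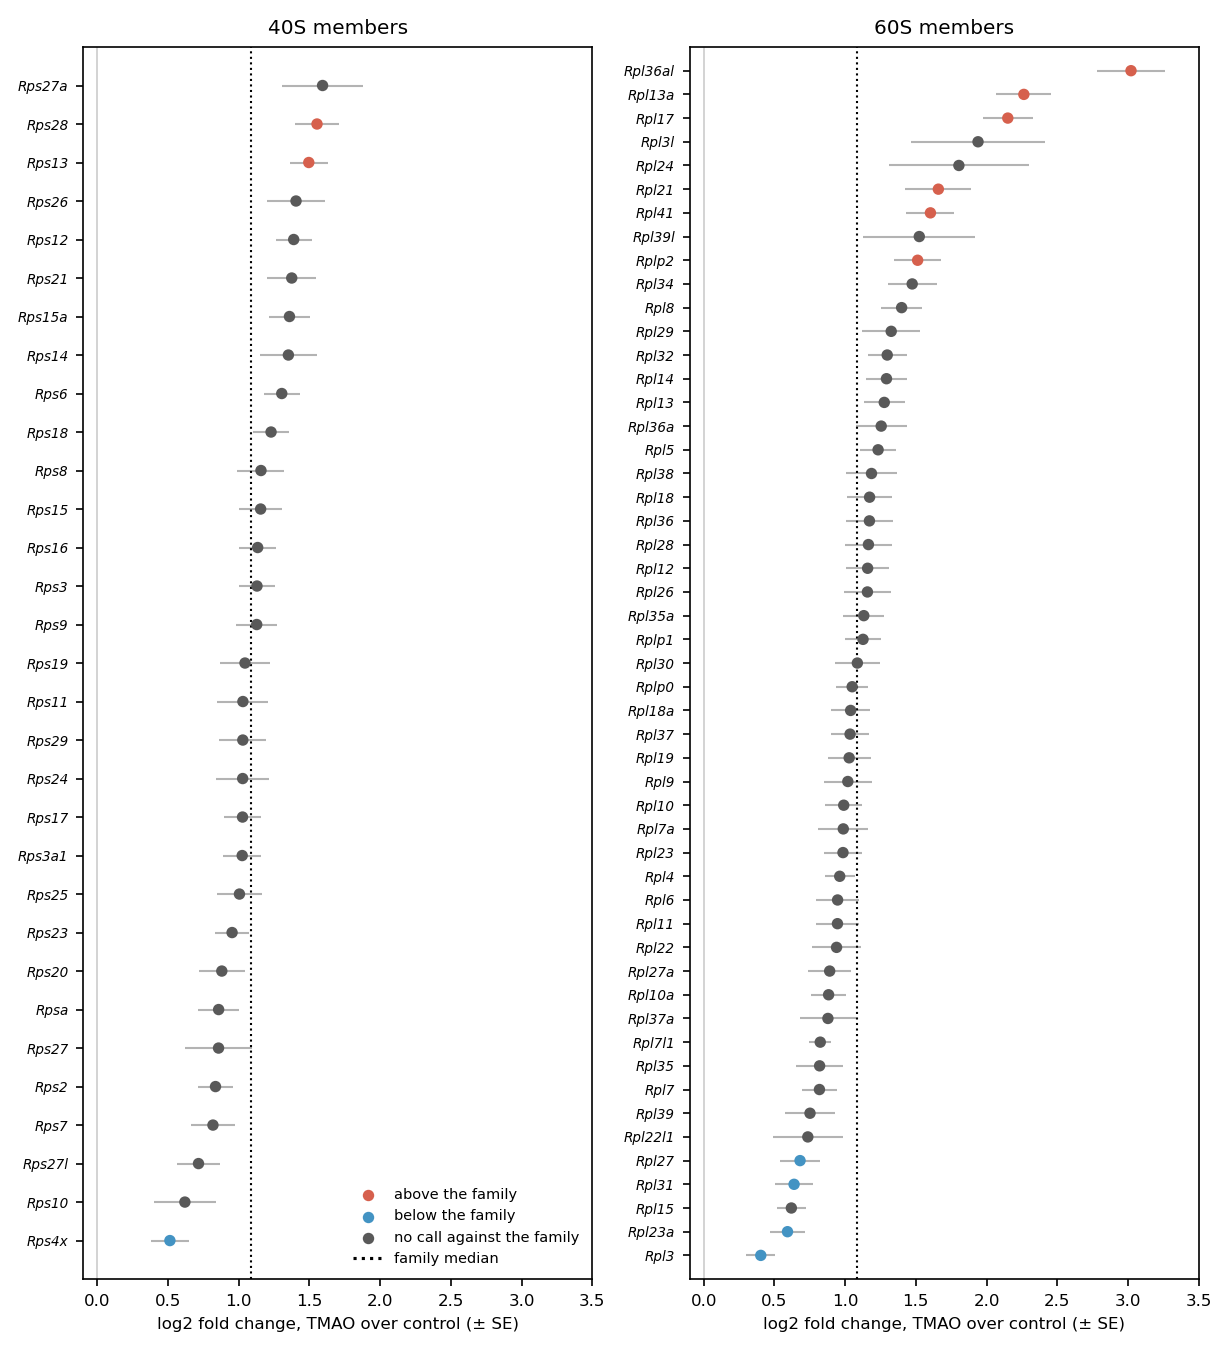
log2 fold change, TMAO over control (horizontal axis), of 31 members of the 40S and 51 of the 60S subunit (rows), with bars of 1 standard error from edgeR. The dotted line is the family median of 1.09, and colours mark the members called above the family and those called below it.

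Rpl13a (ENSMUSG00000074129), a 60S protein that in human monocytes can also silence translation of inflammatory mRNAs, lay above the family. It had 14.6, 24.2 and 19.4 CPM with TMAO and 3.71, 3.93 and 4.67 CPM in controls. Its log2 fold change was 2.26 ± 0.20 (SE), and 1.16 relative to the family (edgeR adjusted p = 0.000595). The counts behind it were 580, 895 and 749 with TMAO and 143, 161 and 192 in controls, and its level was 18.5 CPM per kilobase with TMAO and 3.92 in controls, the lowest of the 78 members above 5 CPM. How reads shared with near-identical copies were counted is not stated.

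Rpl17 (ENSMUSG00000062328), a 60S protein beside the exit tunnel, had 283.6, 332.5 and 484.6 CPM with TMAO and 88.8, 85.1 and 77.8 CPM in controls. The groups were far apart, with a log2 fold change of 2.15 ± 0.17 (SE), or 1.08 relative to the family (edgeR adjusted p = 0.00154). Unlike most members, it was highest in TMAO 3. When the counts of its 7 annotated pseudogenes were added, which supplied 39.4% of the merged counts, the log2 fold change was 1.33. The pseudogene row Rpl17-ps10 alone averaged 97.3 ± 57.2 CPM with TMAO and 97.3 ± 26.3 CPM in controls, with a log2 fold change of 0.03. How the counting divided shared reads between the gene and its pseudogenes is not stated.

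The other members called above the family had smaller departures. Rpl21 lay 0.60 above it on the log2 scale and Rpl41 0.53. Rps28, a 40S protein of the mRNA exit region, had 422.2, 594.8 and 447.8 CPM with TMAO and 138.6, 194.6 and 173.9 CPM in controls, and lay 0.47 above. Rplp2 lay 0.43 above and Rps13, outside the rule for named genes, 0.42.

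Rps27a encodes a 40S protein fused to ubiquitin, and its libraries varied more than those of its neighbours in rank. It had 515.1, 893.1 and 325.2 CPM with TMAO and 180.0, 186.0 and 218.5 CPM in controls. All 3 TMAO values exceeded all 3 control values, with a log2 fold change of 1.59 ± 0.29 (SE), but the TMAO values differed among themselves by more than the lowest of them differed from the controls. Relative to the family it had no call (edgeR adjusted p = 0.147).

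Rpl3 (ENSMUSG00000060036), a core protein of the peptidyl transferase centre, had the smallest log2 fold change of the family. It had 767.5, 917.2 and 893.8 CPM with TMAO and 618.9, 726.5 and 634.6 CPM in controls. The groups were separate by a small margin, and the log2 fold change was 0.40 ± 0.10 (SE, edgeR adjusted p = 0.00559), or -0.66 relative to the family (edgeR adjusted p = 0.00267). Rps4x (ENSMUSG00000031320), an X-linked 40S protein, had 751.7, 1079 and 887.8 CPM with TMAO and 605.3, 729.2 and 601.3 CPM in controls. Its log2 fold change was 0.51 ± 0.14 (SE), or -0.57 relative to the family (edgeR adjusted p = 0.00401). The lowest TMAO value of Rps4x lay just above the highest control value.

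The other members below the family were 60S genes. Rpl23a, at the exit tunnel where the signal recognition particle docks, had a log2 fold change of 0.59, and relative to the family -0.49. Rpl31, another protein of the tunnel exit, had 703.9, 948.1 and 785.6 CPM with TMAO and 505.3, 620.3 and 465.1 CPM in controls, with a log2 fold change of 0.64, and relative to the family -0.43. Rpl27 had a log2 fold change of 0.68, and relative to the family -0.40. Rpl15 had a like log2 fold change of 0.62 but no call relative to the family (edgeR adjusted p = 0.0649), with 352.5, 347.8 and 368.3 CPM with TMAO and 238.3, 265.3 and 202.7 CPM in controls.

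Paralogs were read against their partner genes within each library, a ratio that scaling of the libraries does not affect. Rpl36al (ENSMUSG00000049751) stood at 1.496%, 1.02% and 1.06% of the counts of Rpl36a in the TMAO libraries and at 0.266%, 0.287% and 0.481% in the control libraries, so the groups were separate. The log2 ratio was higher by 1.79 with TMAO (exact permutation p = 0.1, the smallest possible here). Rpl36al itself had only 482 counts over the 3 TMAO libraries and 63 over the 3 controls. Rpl3l, known as a muscle paralog of Rpl3, was rarer still, with 110 counts with TMAO and 30 in controls, and a log2 ratio higher by 1.70. Rpl39l, known from testis, had 148 counts with TMAO and 55 in controls, and a log2 ratio higher by 0.87. Both ratios also separated the groups and reached the smallest exact p of 0.1, but together the 3 paralogs held 740 counts over the TMAO libraries.

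For the better expressed paralogs the ratios of the groups overlapped. Rps27l, a p53 target, was at 25.6%, 18.2% and 22.0% of Rps27 in TMAO libraries and 25.5%, 23.9% and 20.8% in controls, a log2 difference of -0.10 (exact permutation p = 0.7). Rpl7l1, a nucleolar relative of Rpl7, was at 19.3%, 14.3% and 17.1% of Rpl7 with TMAO and 17.1%, 15.1% and 17.7% in controls, a log2 difference of 0.01 (exact p = 1). Both signs turned when single libraries were left out, which gave 0.026 for Rps27l without TMAO 2, and -0.089 without TMAO 1 and -0.053 without control 2 for Rpl7l1. Rpl22l1 was at 5.13%, 6.16% and 5.05% of Rpl22 with TMAO and 5.95%, 7.03% and 6.07% in controls, a log2 difference of -0.22 (exact p = 0.3). Rpl22l1 itself had 10.6, 22.3 and 13.7 CPM with TMAO and 8.17, 11.4 and 8.85 CPM in controls, and its call (log2 fold change 0.74, edgeR adjusted p = 0.0235) was lost without TMAO 2, without control 1 and without control 3.

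**Figure D5:**
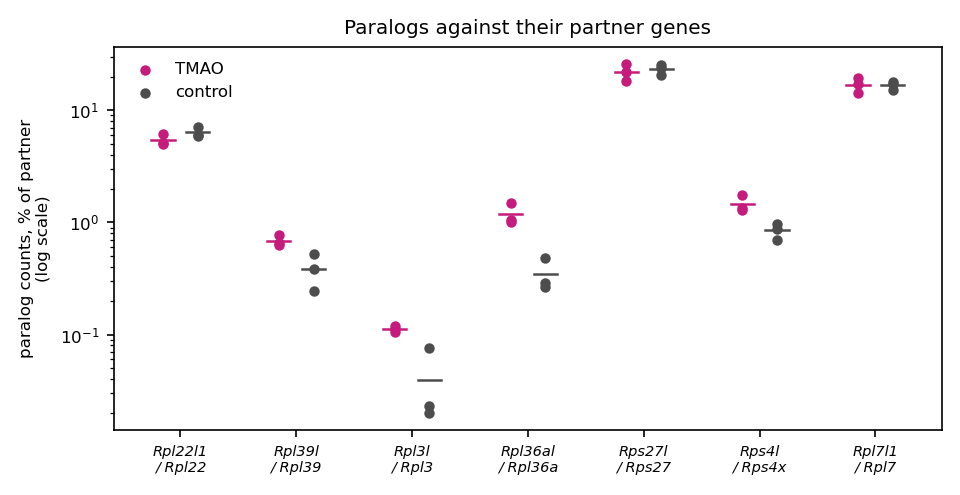
Counts of each paralog as a percentage of its partner's counts (vertical log axis) in each TMAO library and each control library (points), with group means as lines. Rps4l is annotated as a pseudogene and is not among the 83 members. The groups are separate for Rpl39l, Rpl3l, Rpl36al and Rps4l, and overlap for Rpl22l1, Rps27l and Rpl7l1.

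For 5 members the mean was under 5 CPM, namely Rpl36al, Rpl39l, Rpl3l, Rps10 and Rpl24. Rps10 and Rpl24, named here after their values were seen, are core subunits of the ribosome, yet Rps10 had 2.17, 2.27 and 2.41 CPM with TMAO and 1.505, 1.755 and 1.264 CPM in controls. When the counts of its 3 annotated pseudogenes were added, they made up 98.4% of the merged value, which was 149.1 ± 25.5 CPM with TMAO and 92.1 ± 14.4 CPM in controls, with a log2 fold change of 0.72, against 0.62 for the gene's own row. The call of Rps10 alone was lost without TMAO 2, TMAO 3, control 1 or control 3. Rpl24 had 0.73, 0.95 and 0.67 CPM with TMAO and 0.42, 0.15 and 0.12 CPM in controls, a log2 fold change of 1.80. Of the 54 members that had rows named as their pseudogenes, a few of which are annotated as protein-coding, 47 received under 10% of their merged counts from them. With all of these counts added, 83 members were still called higher.

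Most of the annotated pseudogene rows that could be tested were higher as well. Of 201 such rows, 95 were tested, and 60 were higher and 2 lower, with a median log2 fold change of 0.93. Among all genes tested, 33.0% were higher and 32.7% lower. They held 0.111% to 0.160% of all counts with TMAO and 0.0661% to 0.0876% in controls. A further 6 rows with ribosomal protein names outside the family's pattern were annotated as protein-coding, of which 5 were tested and 5 were higher. The 2 lower rows, named after their values were seen, were Rps26-ps1 and Rps15-ps2. Rps26-ps1 had 18.0, 23.7 and 16.7 CPM with TMAO and 62.3, 51.5 and 36.2 CPM in controls, a log2 fold change of -1.34 (edgeR adjusted p = 0.000157), while the member Rps26 had one of 1.40. Reads of a processed pseudogene and of its parent cannot be told apart where they are identical in sequence.

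Ribosomal proteins with other symbols were also higher. Rack1, a signalling scaffold on the 40S subunit, had 1286, 1412 and 1431 CPM with TMAO and 695.8, 784.5 and 616.7 CPM in controls, a log2 fold change of 1.00. Fau, which encodes Rps30 fused to a ubiquitin-like protein, had a log2 fold change of 1.45. Mitochondrial ribosomal proteins translate the respiratory chain subunits encoded in mitochondrial DNA. Their 77 genes were chosen by symbol alone, and membership of the mitochondrial ribosome was not checked. Of the 77, 64 were higher, 1 (Mrps36) was lower and 12 had no call, beside the 33.0% of all genes tested that were higher. Their median log2 fold change was 0.67. Relative to the cytosolic family 36 were below it and 2 above it, where 66.4% of all genes were below and 6.43% above. Mrpl54 had the smallest p of that list, with a log2 fold change of 1.84.

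Other genes with TOP mRNAs, which share the translational control of the family, did not all have the same direction. Of 19 on the list, 13 were higher, 2 lower and 4 had no call, beside 33.0% higher and 32.7% lower over all genes tested. The median log2 fold change of the list was 0.51. Relative to the ribosomal proteins, 11 of the 19 were below and 1 above, close to the 66.4% and 6.43% of all genes tested. Hnrnpa1, an RNA-binding protein of splicing, had a log2 fold change of 0.86, and Eef1e1, a partner of the aminoacyl-tRNA synthetase complex, of 1.19. The 2 lower genes were Eif4b, an initiation factor, with -0.48, and Vim, which encodes the filament protein vimentin, with -0.41.

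Dedicated chaperones carry single ribosomal proteins to the assembling subunits. Of 8 named, 7 were tested and 6 were higher, 0 lower, with a median log2 fold change of 0.58. Among all genes tested, 33.0% were higher and 32.7% lower. Ltv1, a 40S assembly factor, had 76.8, 82.6 and 74.9 CPM with TMAO and 35.2, 36.5 and 35.3 CPM in controls, a log2 fold change of 1.15. Grwd1, a chaperone of Rpl3, also had one of 1.15, in contrast to the 0.40 of its client.

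Genes of the mTOR pathway and of TOP mRNA control showed no common direction. Of 15, 4 were higher, 6 were lower and 5 had no call, and the median of their log2 fold changes was -0.13. The genes tested as a whole were also split, with 33.0% higher and 32.7% lower. Whether the list differed from them was not tested. Eif4ebp1, the cap-binding repressor that mTOR complex 1 inactivates, had 147.5, 206.8 and 175.4 CPM with TMAO and 49.0, 58.3 and 44.0 CPM in controls, a log2 fold change of 1.83. Akt1s1, a subunit that restrains mTOR complex 1, had a log2 fold change of 1.14. Mtor itself had one of -0.96, Deptor, another restraining subunit, of -2.28, and Larp1, which binds TOP mRNAs, of 0.03 with no call.

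The promoter tables held 75 start windows for 63 of the 83 members, each from 250 bases before to 50 bases after an annotated start. A pyrimidine run of at least 5 beginning with C lay within 5 bases of the start in 41.3% of these windows, against 18.3% of all 32851 windows. A longer run of at least 8 within 50 bases, a setting chosen after the data were seen, was present in 78.7% of member windows and in 28.8% of all. On either strand, CCGGAAG, a motif of ETS factors, was found in 36.0% of member windows and 8.86% of all, AAGATGGC, a YY1 motif, in 10.7% and 2.75%, and GGGCGG, an SP1 motif, in 60% and 35.7%. The palindrome of 10 bases, whose letters are those in capitals in Rps28, was found in 9.33% and 0.466%. A match is a description and not a binding site.

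The medians of the 63 members with a window were set side by side for each run and motif, without a test. The 29 genes with the start run had a median log2 fold change of 1.13, and the 34 without it 1.04. With CCGGAAG the median was 1.01 over 26 genes, and without it 1.13 over 37. For GGGCGG the medians were 1.03 over 39 genes with it and 1.14 over 24 without it. For AAGATGGC they were 1.04 over 6 and 1.04 over 57. For the palindrome they were 1.16 over 6 and 1.03 over 57, and for the run of at least 8 they were 1.04 over 53 and 1.04 over 10. Rpl13a and Rpl31, both with long runs in the stretches shown above, stood at 2.26 and 0.64.

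Transcript length moved with the result over the whole table, and the members are short. Their median transcript had 751 bases against 2492 for all genes tested, and 73.5% of members but 15.5% of all genes were under 1000 bases. Log2 fold change correlated with log2 length at r = -0.24 (Spearman -0.32) across 14598 genes, and at r = -0.12 (Spearman -0.22) across 78 members, as descriptions across genes that share libraries. Among genes under 1000 bases the median log2 fold change was 1.13 for members and 0.49 for all genes. With the trend on length removed from the counts, the members' median was 0.69, and 74 were higher and 0 lower. In that setting 31.3% of all genes tested were higher and 34.7% lower. The members Rpl31, Rpl39, Rps4x, Rpl22l1, Rps27, Rpl15, Rpl23a, Rpl3 and Rps10 lost their calls. The part of the length trend in the result was not tested.

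The cells of the groups also differed in markers of other cell types. The counts of markers called stand beside 33.0% higher and 32.7% lower over all genes tested. Summed CPM of 15 neutrophil markers were 4503 to 5661 with TMAO and 491.8 to 541.0 in controls, with 12 higher and 2 lower. For 7 monocyte markers the sums were 1006 to 1065 with TMAO and 177.9 to 229.0 in controls, with 7 higher. For 10 macrophage markers, 4 of which were higher and 5 lower, they were 6416 to 6743 with TMAO and 8638 to 9274 in controls, so macrophage genes were present in both groups. Sums for 7 genes of dividing cells were 535.4 to 599.3 with TMAO and 272.3 to 323.1 in controls, with 6 higher. B cell markers summed to 32.8 to 34.7 CPM with TMAO and 9.13 to 11.5 in controls, with 6 of 7 higher and Pax5 at 0 in the controls. Erythroid markers summed to 1.79 to 1.95 CPM with TMAO and 1.12 to 2.16 in controls. T and NK markers summed to 1.99 to 2.85 CPM with TMAO and 0.208 to 0.511 in controls, with Cd3d, Cd3g, Trac and Nkg7 at 0 in controls and Cd3e at 0 with TMAO. The part of the cell mix in the ribosomal protein result was not tested.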

How the data were processed

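RNA-seq of 3 TMAO and 3 control libraries of mouse myeloid cells was analysed from 1 table of raw counts per Ensembl gene, whole numbers without normalization, as deposited by the authors. Per the labels' protocols, polyadenylated RNA was purified and fragmented, and paired-end libraries were sequenced on instruments of different makers, not assigned to libraries, so a platform difference cannot be told apart from the treatment. Reads were placed on GRCm39, per the submitters' processing notes. Not given in the sources used here are the aligner, the counter, strand handling and the annotation release, so overlapping and antisense genes, and reads shared with pseudogenes or paralogs, are uncertain. Groups came from the sample titles, and columns were matched by the sample descriptions.

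Symbols, biotypes, transcript lengths and GC content came from GENCODE for the older build GRCm38, matched by gene ID (25386 of 25751 genes). Length and GC were those of a single transcript per gene. It was the lower median in length of the transcripts tagged as principal, or of all where none was tagged. Promoter sequences came from RefSeq. Subunits were assigned by symbol. With edgeR 4.0.16 (limma 3.58.1, R 4.3.3), 14626 genes passed filterByExpr (minimum count 10). TMAO was compared with control by the quasi-likelihood test after TMM scaling, and p-values were adjusted by Benjamini-Hochberg across the tested genes at 0.05. The family-relative fit scaled the libraries by the median ratio over the 78 members of at least 5 CPM. Shares and ratios (with 0.5 counts added to each gene of a paralog pair) were compared by exact two-sided permutation tests, with a smallest p of 0.1. CPM are TMM-scaled, errors are SD over 3 libraries, and SE are of log2 fold changes. Counts of library pairs within a group differed beyond sampling noise (chi-square per degree of freedom 13.0 to 65.6), so none was a repeated reading of the same library. The values cannot show whether the libraries came from separate cultures or animals.

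The members and lists were chosen with earlier results of these data known. Among members of at least 5 CPM, the genes named were the 8 largest and 8 smallest log2 fold changes and the 6 highest per kilobase, besides the paralogs and their partners, 9 genes of known role, Fau and Rack1, and the 2 smallest p-values of each other list. Others named were chosen after their values were seen, and some genes examined are not reported here. Alternatives were DESeq2 1.42.0, limma-voom, other scalings and filters, trends on length or GC removed, pseudogene counts added, the replicate number as a block, and each library left out. The steps were tested on simulated data.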

Additional observations from a re-analysis of the deposited data

How the results depend on the processing

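All 83 members kept a positive log2 fold change under each alternative in which they were tested, and 0 were called lower. Called higher were 81 to 83 under every alternative except the removal of the length trend, which gave 74 and a median log2 fold change of 0.69. Of all genes tested, 31.3% were called higher with that trend removed, and 19.4% to 36.3% over the range of alternatives. Alternatives other than that removal gave medians of 1.00 to 1.09 for the members, and leaving out single libraries gave 0.96 to 1.22. The share's difference, 2.85 percentage points, was 2.40 to 3.29 with single libraries left out 2.90 with pseudogene counts added and 3.43 without the 20 most abundant other genes, and as a share of counts per kilobase it was 5.33.

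Counts of departures from the family moved more. Without the count filter, 2 members were below the family. With single libraries left out, 4 to 11 were above and 2 to 7 below. The log2 ratio difference was -0.22 to 0.026 for Rps27l and -0.089 to 0.13 for Rpl7l1 over the libraries left out. The causes were not tested.

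Deviations of same-numbered libraries correlated at 0.08, 0.25 and -0.15 over all genes. Across the 78 members of at least 5 CPM they correlated at 0.40, 0.06 and -0.27. With 3 libraries per group, these values cannot settle whether the replicate numbers paired the libraries. With the replicate number as a block, 83 members were called higher, with a median of 1.08, and 14 were above and 9 below the family. Over the 14626 genes tested, 9723 were called with the block, against 9608 without it.

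Counts limit the members under 5 CPM, of which Rpl3l and Rpl39l had 30 and 55 counts over the 3 controls. Rpl24 had 16, 6 and 5 counts in controls 1, 2 and 3.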
